A study of Caenorhabditis elegans with 2 samples.

Results

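Peaks at the promoter of exactly 1 gene were taken from a ChIP-seq study of R02D3.7, a protein of the nematode Caenorhabditis elegans that the annotation names rcat-1 and describes as a C2H2-type domain-containing protein. A peak was a member when its summit lay from 1000 bp upstream to 200 bp downstream of an annotated 5′ end of 1 protein-coding gene and of no other. Of the reproducible peaks, 218 met this rule (40.2%, Wilson 95% interval 36.2 to 44.4%), 236 lay in the windows of 2 or more genes and 88 lay in no window, and these 3 sets make up all of them. The 218 peaks belong to 214 genes, since egg-5 and H41C03.3 have 2 peaks each and eif-2Bgamma has 3.

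The samples are 2 biological replicates of 1 group, whole mixed-sex L2 larvae of strain OP218. All animals carry the unc-119(ed3) mutation on chromosome III and a transgene, wgIs218, that supplies R02D3.7 fused to eGFP. Which of the larva's cells make it is not given in the sources used here. There is no second genotype, stage or treatment, so the values below describe peaks within 1 group and no test between groups exists. Peaks of one library share that library and are not independent replicates.

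In ChIP-seq, DNA bound by the tagged protein is enriched with an antibody and sequenced, and places with many reads are called as peaks, each with a summit where the enrichment is highest. C2H2 zinc fingers are small domains, many of which bind DNA. Worm promoters are compact: many genes stand in operons behind one shared promoter, and many transcripts have their own 5′ end replaced by a spliced leader, so that an annotated 5′ end is often the splice site and not the place where transcription begins. A summit with a single gene in reach allows a peak to be tied to that gene by position, which a summit between 2 divergent genes does not.

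The sequence under the summits is shown first. Each of 6 words was searched on both strands from 50 bp before to 50 bp after the summit. The first word was CGTAAA, and the next was CGTAAATC, which contains it. The third word was ACGCGC and the fourth was GACGCA, and these 4 were chosen with earlier results of these data known. For comparison TATAAA was searched, and so was the repeat GAGAGA. The windows printed next are those of some strong members that hold CGTAAA. Members stronger than some of these, such as H35B03.2 and dcap-1, are not among them. The windows are given in reference sequence (RefSeq copy of WBcel235, the assembly of ce11) and 5′ to 3′ along the gene's strand. Capitals mark the first or second word as read on either strand. None of the printed windows touches an annotated exon. The sco-1 window is that of the strongest member, and it holds the longer word at both of its ends. The windows of F54D10.5 and gtsf-1 are shown together because they share runs of 21, 11, 9 and 8 bases in the same order, although the genes lie on different chromosomes.
sco-1 (chrII:4299386-4299486, plus strand): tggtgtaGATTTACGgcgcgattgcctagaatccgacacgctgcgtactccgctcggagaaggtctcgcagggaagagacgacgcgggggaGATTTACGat
exos-2 (chrIV:6415312-6415412, plus strand): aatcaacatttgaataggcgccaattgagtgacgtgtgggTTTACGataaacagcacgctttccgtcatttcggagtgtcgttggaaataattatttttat
F54D10.5 (chrII:3808249-3808349, minus strand): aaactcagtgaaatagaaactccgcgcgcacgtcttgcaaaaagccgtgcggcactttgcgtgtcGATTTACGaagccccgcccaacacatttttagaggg
gtsf-1 (chrIV:16865677-16865777, plus strand): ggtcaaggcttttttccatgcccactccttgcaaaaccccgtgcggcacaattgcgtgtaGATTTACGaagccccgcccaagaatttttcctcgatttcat
T26G10.1 (chrIII:9406731-9406831, minus strand): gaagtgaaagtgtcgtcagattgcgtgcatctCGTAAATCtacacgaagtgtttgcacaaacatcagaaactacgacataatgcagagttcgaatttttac

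A longer arrangement was seen in these sequences and then counted, so it was chosen after the data were seen. The word CTCCG stood upstream of TGTTTA and of CGTAAA on the same strand, at nearly fixed distances. Of the 218 members, 24 (11%, Wilson 95% interval 7.51 to 15.9%) held CTCCG with TGTTTA beginning 21 to 27 bp after its first base, or with CGTAAA beginning 28 to 34 bp after it, within 100 bp of the summit. The same was true of 32 of 236 summits in the windows of 2 or more genes (13.6%), of 1 of 88 summits in no window (1.14%), of 41 of 29458 candidate regions outside the reproducible set (0.139%) and of 0.506% of 19973 promoters taken at the members' median offset. CTCCG alone was found in 36.2% of members and 16.3% of promoters. The 12 strongest members that hold both pairs and meet the printing rule are aligned on CTCCG, with the 3 words in capitals, and each is read on the strand where CTCCG comes first.
exos-2 (chrIV:6415348-6415393, minus strand): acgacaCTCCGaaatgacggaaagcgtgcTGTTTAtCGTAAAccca
H35B03.2 (chrIV:5731760-5731805, plus strand): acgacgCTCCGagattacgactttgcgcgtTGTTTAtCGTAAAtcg
F56A8.3 (chrIII:13256636-13256681, plus strand): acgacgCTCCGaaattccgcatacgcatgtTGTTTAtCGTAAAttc
R02F2.9 (chrIII:5499135-5499180, plus strand): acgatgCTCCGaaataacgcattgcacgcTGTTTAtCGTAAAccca
T26C5.3 (chrII:9243000-9243045, plus strand): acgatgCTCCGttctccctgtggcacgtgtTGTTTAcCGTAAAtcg
arx-5 (chrIII:12818522-12818567, minus strand): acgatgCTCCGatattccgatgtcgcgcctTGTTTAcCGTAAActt
taf-8 (chrII:9669156-9669201, plus strand): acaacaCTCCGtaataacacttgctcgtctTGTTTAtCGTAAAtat
ZK686.2 (chrIII:7766153-7766198, minus strand): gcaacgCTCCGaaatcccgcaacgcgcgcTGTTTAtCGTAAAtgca
haf-2 (chrII:7356989-7357034, minus strand): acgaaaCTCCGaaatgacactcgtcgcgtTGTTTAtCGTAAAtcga
eif-2Bgamma (chrII:6967759-6967804, minus strand): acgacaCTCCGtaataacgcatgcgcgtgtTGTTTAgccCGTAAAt
syf-3 (chrV:5939701-5939746, plus strand): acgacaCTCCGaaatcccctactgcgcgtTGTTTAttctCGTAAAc
C26B2.7 (chrIV:8015774-8015819, minus strand): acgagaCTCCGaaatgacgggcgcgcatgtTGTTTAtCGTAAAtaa

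The distance from CTCCG to CGTAAA was 31 bp in 12 members and 30 bp in 6, and 33 bp in 3. The distance from CTCCG to TGTTTA was 24 bp in 10 members and 23 bp in 7. In 6 members CTCCG and CGTAAA also overlapped, with 3 bp between their first bases. The arrangement ran along the gene's strand in 20 of the 24 members and against it in 4, which include the very strong peaks of exos-2, dld-1 and H35B03.2. Its centre lay a median of 10 bp from the summit. It was found in 11 of the 30 strongest members, in 8 of those ranked 31 to 100 and in 5 of those ranked after 100.

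Column 7 of the members that hold the arrangement is given as a description only, because the arrangement was first seen in windows of members chosen for high column 7. Column 7 is the signal value that the authors' peak caller gave each region, on a scale that is not stated. In the list called on both replicates joined, the 24 members had a median of 162 (quartiles 77.8 and 335), against 67.5 (50.1 and 106) in the other 194. In replicate 1 the medians were 108 and 50.3, and in replicate 2, where zfp-2 of the 24 had no region, they were 46.4 and 18.5. The 2 sets overlapped widely in all lists. Of the 24, exos-2, dis-3 and lsm-5 are in the splicing and mRNA processing list, which has 10 members' genes. The genes eif-2Bgamma and eif-3.B are in that of translation factors, which has 4. The genes dld-1, taf-8 and arx-5 are each in a further list. Whether any list is more frequent among the 24 than among all members was not tested. The genes exos-2 and dis-3 encode subunits of the exosome, which degrades RNA from its 3′ end, and lsm-5 a ring protein that binds U6 snRNA.

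The third word, ACGCGC, is shown by members that lack CGTAAA. Many of these had 2 further A bases before it, so the longer AAACGCGC was counted after the sequences were seen. It was found in 23 of 218 members (10.6%) and in 0 of 436 flanking windows centred 300 bp to each side (Wilson upper bound 0.873%). It was found in 17 of 236 summits in the windows of 2 or more genes and in 0.586% of promoters at the median offset. Capitals mark AAACGCGC, and the sequences are aligned on it.
dnj-9 (chrII:4851784-4851829, plus strand): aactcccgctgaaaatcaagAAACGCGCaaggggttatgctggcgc
W03F8.4 (chrIV:5183829-5183874, plus strand): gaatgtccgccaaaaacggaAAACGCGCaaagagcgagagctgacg
fust-1 (chrII:7152149-7152194, plus strand): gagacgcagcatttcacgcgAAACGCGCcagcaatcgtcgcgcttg
T07F10.3 (chrV:12870111-12870156, plus strand): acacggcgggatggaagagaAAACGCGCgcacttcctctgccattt

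The fourth word, GACGCA, is printed for the strongest members that hold it and lack CGTAAA. Capitals mark the aligned word. Of its 48 occurrences 33 (68.8%) read along the gene's strand, against 51.2 to 58.5% of those of the other 3 words.
rpl-3 (chrIII:3867568-3867613, plus strand): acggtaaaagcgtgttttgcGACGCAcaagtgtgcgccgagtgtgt
cox-5A (chrIII:12905188-12905233, plus strand): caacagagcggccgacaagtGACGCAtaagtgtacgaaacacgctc
Y39B6A.43 (chrV:18967834-18967879, minus strand): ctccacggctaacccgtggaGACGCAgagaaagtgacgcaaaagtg
eelo-2 (chrIV:17249888-17249933, minus strand): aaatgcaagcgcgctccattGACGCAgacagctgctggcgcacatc

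Across all 218 members, 64 held CGTAAA (29.4%), 54 held ACGCGC (24.8%) and 42 held GACGCA (19.3%). The flanks 300 bp away held them in 4.36%, 0.917% and 1.38% of windows. Promoters of all 19973 genes, taken at the members' median offset, held them in 4.41%, 2.34% and 2.98%. At least 1 of the first 4 words was found in 61.9% of members, against 6.42% of the flanks, 58.5% of summits in the windows of 2 or more genes and 9.18% of promoters. Of the 3 words, CGTAAA and ACGCGC shared 16 windows, CGTAAA and GACGCA shared 6, and ACGCGC and GACGCA shared 3. Whether they shared windows less often than their separate shares would give was not tested. None of the first 4 words was found in 83 members.

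Within the searched windows, which reach no more than 50 bp from the summit, these words lay nearer to it than the comparison words. CGTAAA had a median distance of 17.5 bp, ACGCGC of 14.5 bp and GACGCA of 18 bp, and between 66.7% and 69.2% of their occurrences were within 25 bp. For TATAAA the median was 29.5 bp, with 5 of only 11 occurrences (45.5%) within 25 bp. For GAGAGA it was 34.5 bp, with 17 of 45 (37.8%). The 2 words added for comparison differed: TATAAA, the core of the TATA box, was found in 4.59% of members and 12.8% of flanks, and GAGAGA in 13.3% of members and 6.88% of flanks. G and C made up 45.7% ± 7.60 of the bases in summit windows (SD over 218 windows) and 35.8% ± 8.23 in flanks. The part of base composition in the word counts was not tested.

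CGTAAA was found more often in stronger members, and ACGCGC showed no such order. This is a description only, because the words were chosen with earlier results of these data known. CGTAAA was found in 60% of the members ranked 1 to 50 by column 7, in 40% of those ranked 51 to 100, in 12% of the next 50 and in 11.8% of the rest. ACGCGC was found in 20%, 36%, 24% and 20.6% of the same sets, and GACGCA in 20%, 20%, 22% and 16.2%. Members with CGTAAA had a median column 7 of 122 in the joined list, against 62.3 in members without it. For ACGCGC these medians were 77.8 and 69.3, and for GACGCA 71.0 and 71.2.

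**Figure D1:**
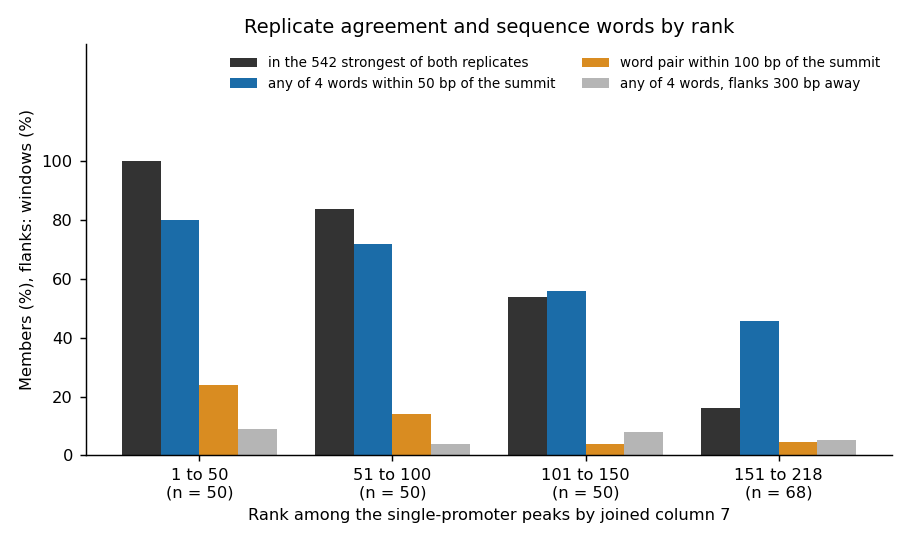
Bars give, for members in 4 rank sets by joined column 7 (x axis), the percentage in the strongest regions of both replicates, the percentage with at least 1 of 4 words within 50 bp of the summit, the percentage with the CTCCG arrangement within 100 bp, and the percentage of flanking windows with a word. All 50 of the strongest members and 16.2% of the weakest 68 are among the strongest regions of both replicates, while a word is found in 80% and 45.6% of them and in 9% and 5.15% of their flanks.

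The strongest member was the promoter of sco-1, whose product is annotated as a thioredoxin domain-containing protein and which is named for a yeast factor that delivers copper to cytochrome c oxidase. Its summit, at chrII:4299436, lay 217 bp upstream of the 5′ end. Column 7 was 1257 in replicate 1 and 448 in replicate 2, the highest of all regions in each list, and 1699 in the joined list. The next member, at exos-2, had 576 in replicate 1 and 193 in replicate 2, so sco-1 was more than 2-fold above the other members in both. Peaks in the windows of 2 or more genes came closer to it, reaching 984 in replicate 1 and 390.5 in replicate 2, and exos-2 ranked 7 in the whole reproducible set.

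The 30 strongest members ranged from 206 to 1699 in the joined list, from 138 to 1257 in replicate 1 and from 33.7 to 448 in replicate 2. None of the 30 ranked below 89 among the candidate regions of replicate 1 or below 148 among those of replicate 2. Of the 30, 24 held at least 1 of the first 4 words. Those without one include dld-1, acl-1 and cdc-48.1. The acl-1 summit window, for a putative acyltransferase of phospholipid synthesis, was 22.8% G and C, the sco-1 window 57.4%.

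Of the 30, exos-2 and dcap-1 are in the splicing and mRNA processing list and rpl-3, rpl-35, rps-24 and rps-21 in the cytosolic ribosome list. The product of dcap-1 activates removal of the mRNA cap, and its peak had 279 in replicate 1 and 106 in replicate 2. Some others were picked by their annotation after the values were seen. H35B03.2 encodes a subunit of ribonuclease P, which trims tRNA precursors (432 in replicate 1 and 157 in replicate 2). T26G10.1 encodes a putative RNA helicase (250 and 82.1), gtsf-1 a small zinc finger protein known from small-RNA pathways (231 and 80.6), and sqd-1 a protein with RNA recognition motifs (191 and 33.7). R02F2.9 is a mitochondrial ribosomal protein gene (252 and 94.3).

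Further members of the 30 are given with their annotated roles, which are mixed. The gene dld-1 encodes dihydrolipoyl dehydrogenase, the shared subunit of the pyruvate and related dehydrogenase complexes of mitochondria (430 in replicate 1 and 188 in replicate 2). T26C5.3 is annotated as an acetyl-coenzyme A transporter (234.7 and 94.8), mecr-1 as the enoyl reductase of mitochondrial fatty acid synthesis (157 and 56.8) and mtm-9 as a myotubularin-related protein (252 and 81.7). The gene chk-1 encodes a checkpoint kinase that halts the cycle when DNA is damaged (208 and 81.0), cdc-48.1 an ATPase that pulls ubiquitylated proteins from complexes (234 and 74.9), taf-8 a subunit of the transcription factor TFIID (175 and 46.4) and arx-5 a subunit of the Arp2/3 complex, which branches actin filaments (158 and 63.9). The other named members of the 30 are F56A8.3, F54D10.5, Y39B6A.13, F02C12.3, ZK1236.5, fbxl-2, egg-5, gcc-1 and F28F8.9, of which F54D10.5, F02C12.3, ZK1236.5 and F28F8.9 are annotated as uncharacterized.

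**Figure D2:**
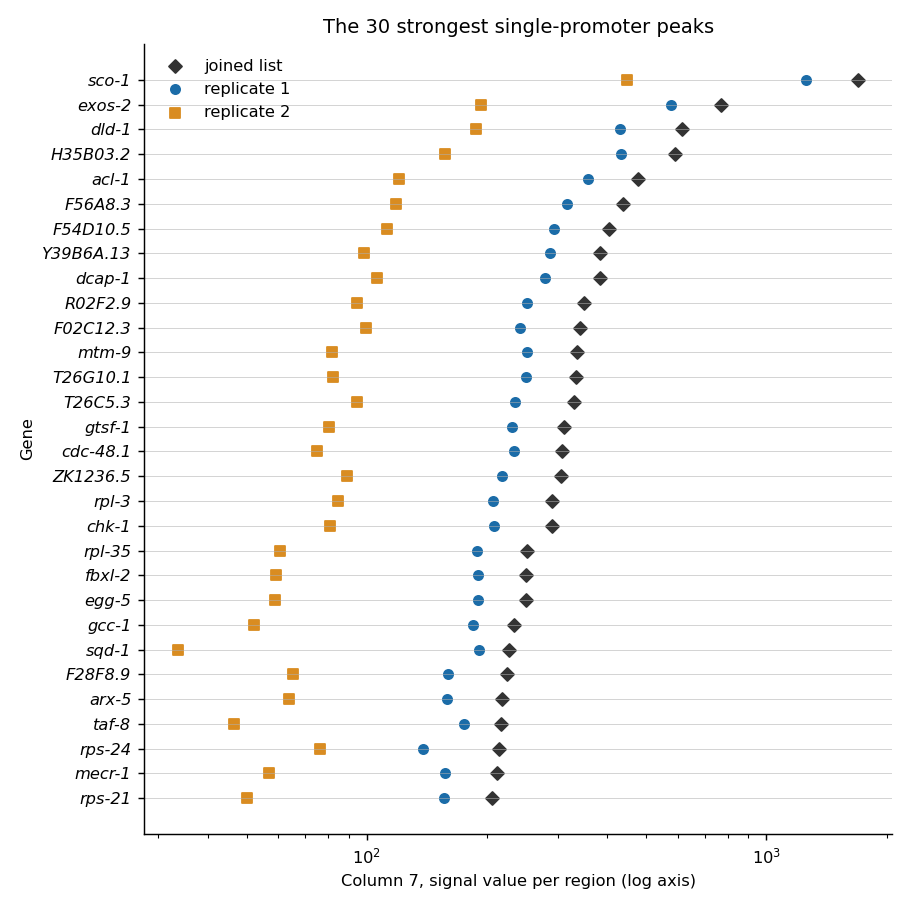
Column 7 of the 30 strongest members (log axis, genes down the page in order of the joined list) is drawn for the joined list, replicate 1 and replicate 2. Every member is higher in replicate 1 than in replicate 2, and sqd-1 at 33.7 is the lowest of the 30 in replicate 2.

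The summits lay a median of 214.5 bp upstream of the nearest annotated 5′ end of their gene (quartiles 134.5 and 336 bp). They ranged from 941 bp upstream to 95 bp downstream, and 208 were upstream and 10 downstream. Between 100 and 400 bp upstream were 145 members (66.5%), within 100 bp on either side 37, and over 500 bp upstream 22. At the windows of 2 or more genes the nearest 5′ end was a median of 148.5 bp downstream of the summit (quartiles 72 and 208 bp). That nearest end is the closer of at least 2, so a shorter distance follows from the definition.

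**Figure D3:**
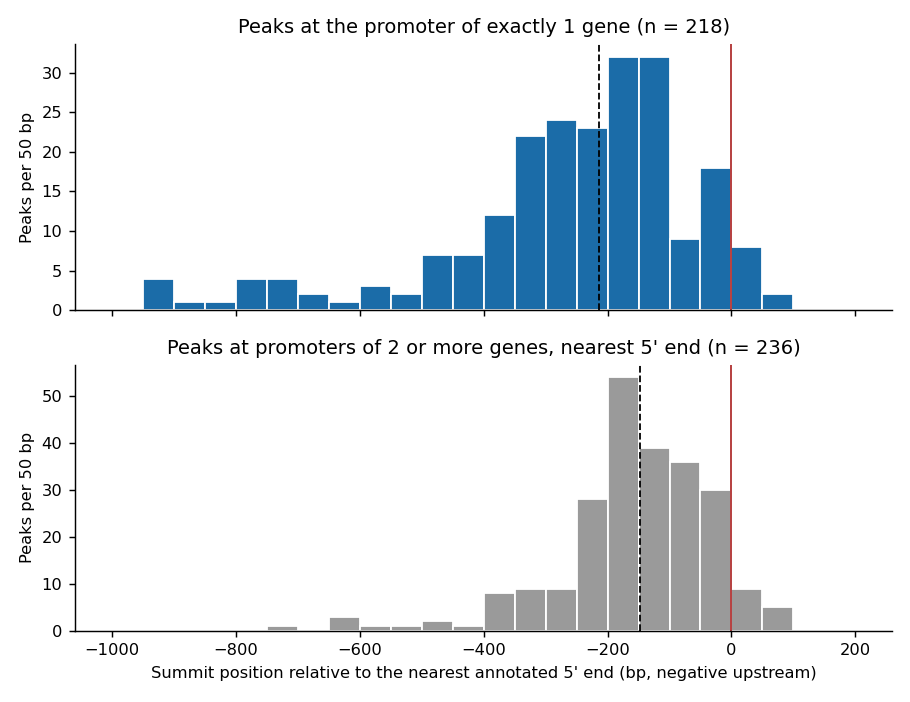
Histograms show the summit position relative to the nearest annotated 5′ end (bp, negative upstream, 50 bp per bar) for 218 single-promoter peaks above and for 236 peaks at promoters of 2 or more genes below. Dashed lines mark the medians, 214.5 and 148.5 bp upstream, and the red line marks the 5′ end.

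Whether the annotated 5′ end is a splice site bears on this distance. An AG directly before the 5′ end, the last bases of an intron or of a trans-splice site, was found at 109 members (50%), against 21.6% of all 29784 annotated 5′ ends. An ATG at the 5′ end itself, as in gene models that begin at the start codon, was found at 22 members (10.1%), against 30.7% of all 5′ ends. The 109 members with AG had a median offset of 243 bp upstream, and none had its summit nearer than 92 bp. The 87 members with neither had a median of 171 bp upstream and reached 95 bp downstream. The 22 with ATG had a median offset of −222.5 bp. Where the end is a trans-splice site, the offset holds both the stretch removed by splicing and the distance to the start of transcription, and these cannot be told apart here.

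Offset and strength were weakly related. Spearman's rho between offset and joined column 7 was 0.165 over 218 members, a description of peaks that share libraries. The median of column 7 showed no steady trend over distance. It was 50.1 for the 10 members over 750 bp upstream, 78.5 for the 12 over 500 and up to 750 bp, 55.3 for the 14 over 400 bp, 55.7 for the 34 over 300 bp, 86.7 for the 47 over 200 bp, 74.8 for the 64 over 100 bp, 86.1 for the 27 within 100 bp and 59.8 for the 10 downstream. The share in the strongest regions of both replicates was 30% in the farthest set and 51.9 to 66.7% in the others.

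The members farthest downstream were at cup-5 (95 bp), smgl-1 (74 bp) and, tied at 25 bp, smu-1 and Y18D10A.4. The gene cup-5 encodes a mucolipin channel of lysosomes, and its peak had 40.6 in replicate 1 and 15.9 in replicate 2. The gene smu-1 encodes a splicing factor, with 38.5 and 18.9, and smgl-1 is annotated as a homolog of neuroblastoma-amplified sequence, with 44.2 and 8.82. Y18D10A.4 had 28.3 and 19.5.

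The members farthest upstream were at eif-2Bgamma (941 bp), H41C03.3 (940 bp) and unc-57 (939 bp), and for the first 2 the nearest annotated 5′ end was that of a small RNA gene. The rule counts protein-coding genes alone. Of the 22 members over 500 bp upstream, 8 (36.4%) had a small nuclear RNA gene in the window, against 1 of the other 196 (0.510%). These 8 peaks lie at 5 genes, since H41C03.3, egg-5 and eif-2Bgamma each have 2 peaks beside the same RNA gene. At H41C03.3 the strong peak, with 137 in replicate 1 and 50.6 in replicate 2, lay 28 bp upstream of sls-2.1. At egg-5 the strong peak, with 190 and 58.9, lay 37 bp upstream of sls-2.4. The genes sls-2.1 and sls-2.4 encode the SL2 spliced leader RNA, which is joined to the mRNAs of downstream genes of operons. At cox-6A the peak, 760 bp upstream of the gene for a cytochrome oxidase subunit, was 66 bp upstream of F54D8.7, and at eif-2Bgamma the weakest of 3 peaks was 31 bp upstream of sup-39. Each of these RNA genes is annotated as an snRNA gene.

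The second peaks beside these RNA genes were weaker. The second peak at H41C03.3 had 67.8 in replicate 1 and 5.57 in replicate 2. The second peak at egg-5 had 65.2 in replicate 1, and in replicate 2 it overlapped the same region as the first, so the 58.9 there belongs to both. At eif-2Bgamma the peak nearest the gene, 133 bp upstream, was the highest of the 3, with 75.6 and 25.1, while the other 2 lay inside another gene and had 38.4 and 13.9, and 29.3 and 5.42. Including all classes other than piRNA and pseudogenes, 36 members had an RNA gene in the window, 6 of them a small nucleolar RNA gene, and for 27 the RNA gene's 5′ end was nearer than that of the protein-coding gene.

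Most summits lay in intergenic DNA. Of the 218, 191 (87.6%) were between protein-coding genes, 16 were inside their own gene downstream of its outermost 5′ end and 11 were inside another gene. For 132 of the 191, the neighbour on the upstream side was on the same strand, a median of 244 bp away, and for the other 59 it was on the opposite strand, a median of 2729 bp away. The split by strand and the second distance both follow in part from the rule. A divergent neighbour with its 5′ end within 1000 bp would have put the peak in both windows. Of the members' 214 genes, 61 (28.5%) were followed on the same strand by another gene within 300 bp, the arrangement typical of operons, against 28.4% of the genes at peaks in several windows and 12.4% of all protein-coding genes.

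The members were spread over all chromosomes, with 40 on I, 48 on II, 35 on III, 37 on IV, 37 on V and 21 on X. Per 1000 protein-coding genes, the members' genes numbered 13.6, 13, 13.3, 11.3, 7.41 and 7.69 in that order, lowest on V and X. Of the peaks in the windows of 2 or more genes, 3 of 236 were on X. On X, 21 of 54 reproducible peaks had exactly 1 gene in reach (38.9%) and 30 had none, while on the whole genome 40.2% had exactly 1. A few members stood close to the edge of the rule. Y39B6A.13 missed a second window, that of pro-3, (offset −1006 bp), and had 287 in replicate 1 and 98.1 in replicate 2. On the other side of the edge, a peak at C50B6.3 was left out because nasp-2 begins exactly 1000 bp away, and it had 43.2 in the joined list.

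The genes were counted in 33 lists drawn up by gene symbol and chosen with earlier results of these data known. Of all 19973 protein-coding genes, 1.07% had a single-promoter peak, and the share of each list is read beside this background. Of the members' 214 genes, 91 (42.5%) were in at least 1 list, against 27.3% of all genes. Lists of processes that every cell needs mostly had shares above the background, with aminoacyl-tRNA synthetases, the mevalonate pathway and named metabolic enzymes below it. Lists of gene families used in sensing, defence or single tissues had shares below it, except the germline and sperm list at 1.38%. Of the lists without a member, only chemoreceptors and F-box, MATH and BTB genes had an upper limit (3 counts) under the background, 0.222% and 0.773%. The limit was 1.10% for nuclear hormone receptors, 1.27% for C-type lectins, 1.42% for detoxification and 1.82% for epidermis and moulting. For the mevalonate pathway it was 15.8%. The other lists without a member are not shown to lie below the background. No list was tested against other genes, so the shares are descriptions.

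The cytosolic ribosome had the highest share, 14 of 84 genes (16.7%, Wilson 95% interval in the plot of gene lists), with a further 32 genes at peaks in several windows. The count was 8 with a window to 2000 bp upstream and 9 among the 271 strongest reproducible peaks. Its strongest members were rpl-3 (207 in replicate 1 and 84.8 in replicate 2), rpl-35 (188 and 60.6) and rps-24 (138 and 76.3), and the weakest were rpl-6 (44.3 and 8.86) and ubl-1 (30.2 and 15). Of the 14, 12 were among the strongest regions of both replicates. Their median offset was −287.5 bp. The list goes by gene symbol, so the 14 include rpl-24.2, which is annotated as a putative ribosome biogenesis protein. Next to the ribosome itself stand the translation factors, with 4 of 54 genes (7.41%): eif-2gamma, eif-3.C, eif-2Bgamma and eif-3.B, all 4 in the top of both replicates. The ribosome biogenesis list had 2 of 52, pro-1 and wdr-46, which act in making the ribosomal RNA. No aminoacyl-tRNA synthetase gene of 32 was a member, which allows a share of up to 9.38%, and 4 were at peaks in several windows.

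Mitochondrial genes stood in several lists. Of 80 genes for the respiratory chain and ATP synthase, 8 (10%) were members: sco-1, cox-5A, nduf-11, cox-5B, cox-4, cox-6A, cyc-1 and asb-2. The gene cox-5A, for a subunit of cytochrome c oxidase, had 145 in replicate 1 and 57.1 in replicate 2, while cyc-1, for cytochrome c1, had 36.6 and 7.06, far below. The import machinery gave tomm-20, timm-17B.1 and tin-9.1, 3 of 42 genes (7.14%). The mitochondrial ribosome list had 2 of 71 (2.82%), mrpl-28 and mrpl-55, the lowest share of these lists. That list goes by gene symbol and misses R02F2.9, a stronger member annotated as large ribosomal subunit protein mL62. Its peak had 252 in replicate 1 and 94.3 in replicate 2, so the count is that of the list and not of all such genes. In RefSeq product names, a count made after the names were seen, the letters mitochondri appeared for 14 of 214 members' genes (6.54%), against 1.49% of all genes.

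The list of splicing and mRNA processing had 10 of 140 genes (7.14%): exos-2, dcap-1, lsm-5, dis-3, hrpu-2, thoc-5, snr-4, mog-4, snrp-3 and rsp-6. The count was 3 with a window to 2000 bp upstream, 5 among the 271 strongest reproducible peaks and 6 from replicate 2 alone. Of the 10, 5 were in the top of both replicates. The members exos-2, dcap-1 and lsm-5 had 127 or more in replicate 1 and 67.9 or more in replicate 2, and the other 7 had 64.2 or less in replicate 1 and 18.8 or less in replicate 2. Members outside the list, named after their values were seen, belong to the same machinery: Y94H6A.3, annotated as PRP16, emb-4, plrg-1 and cwf-19L1. Product names that hold pseudouridine or pseudouridyl were found for 3 members' genes of 5 in the genome, namely Y73B6BL.29, Y48C3A.20 and pus-1, each of which is annotated as a synthase. These enzymes turn uridine into pseudouridine in RNA. The Integrator complex processes the ends of small nuclear RNAs. Its name was found in the RefSeq products of 6 genes, of which ints-4 and ints-5 were members' genes. Integrator and pseudouridine synthases were singled out after their counts were seen.

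Protein folding and turnover followed. Of the chaperone genes 7 (6.80%) were members, led by dnj-9 (106 in replicate 1 and 41.9 in replicate 2), the heat shock protein gene hsp-1 (65.6 and 22.9) and bag-1 (62.3 and 13.3). The proteasome and ubiquitin list had 7 of 121 (5.79%), led by cdc-48.1, csn-5 (118 and 31.4), a subunit of the COP9 signalosome, and ufd-3 (43.9 and 22). The nuclear pore and transport list had 3 of 45 (6.67%), chromatin 6 of 173 (3.47%), the secretory pathway 6 of 178 (3.37%) and DNA replication and cell cycle 4 of 122 (3.28%). Chromatin members include his-37, a histone H4 gene (100.3 and 22.4), scc-2, a loader of cohesin (70.4 and 19.1), and set-4, a histone methyltransferase (54.8 and 18.2). Replication members include pcn-1, the sliding clamp (75.1 and 34.4), plk-1, a mitotic kinase (53.8 and 21.5), and mcm-4, a subunit of the replicative helicase (28.6 and 12.4).

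Of the 33 lists, 10 had no member. Of 1354 genes with chemoreceptor symbols 0 were members, which allows up to 0.222%, and of 273 genes with nuclear hormone receptor symbols 0, which allows up to 1.10%. The count was also 0 for the lists of 388 F-box, MATH and BTB genes, 237 C-type lectin genes and 212 detoxification genes. In that order, these counts allow up to 0.773%, 1.27% and 1.42%. These lists go by gene symbol and miss genes named otherwise. By RefSeq product, read after the values were seen, fbxl-2 has an F-box domain, F48A11.4 (78.6 in replicate 1 and 32.3 in replicate 2) an F-box associated domain and F38E11.9 (42.1 and 9.34) a nuclear receptor ligand-binding domain, so these families are not without a member. The collagen list had 1 of 177 genes, col-63, one of the 3 members of lowest column 7 (32.4 in replicate 1 and 6.35 in replicate 2). The lists of neurons and synapses gave ins-39 and unc-57, 2 of 386, and developmental factors gave ztf-7, 1 of 223. The muscle list has 38 genes and the intestine list 80, so a count of 0 there allows up to 7.89% and 3.75% and is less telling.

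**Figure D4:**
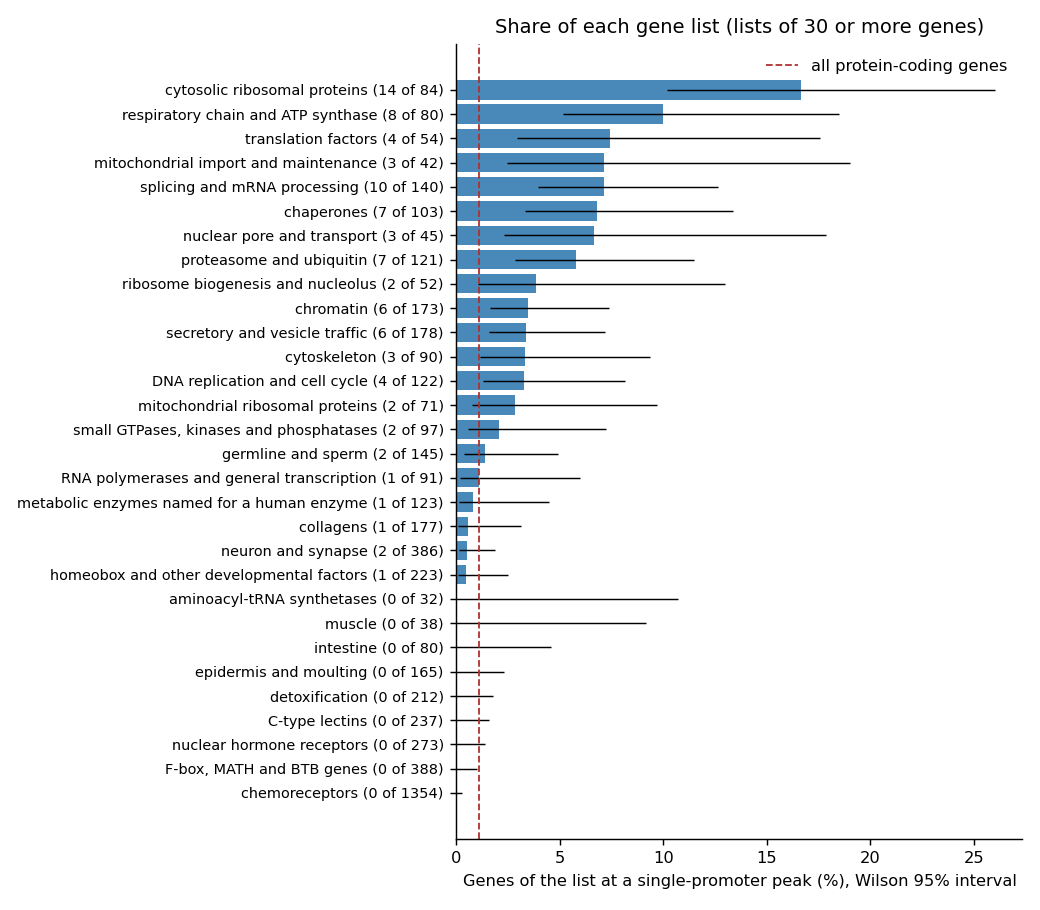
Bars give the percentage of each list's genes with a single-promoter peak, for lists of 30 or more genes, with Wilson 95% intervals as lines and the number of genes in brackets. The dashed line is the 1.07% of all protein-coding genes. The cytosolic ribosome stands highest at 16.7%, and lists with 0 members are at the foot.

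The replicates differed in level for nearly every member. Column 7 had a median of 53.7 in replicate 1 (quartiles 38.4 and 89.9, range 18.4 to 1257) and of 19.1 in replicate 2 (13 and 34, range 4.99 to 448), and the ratio of replicate 2 to replicate 1 had a median of 0.357. The joined value was close to the sum of both, with a median ratio of 1.00 to that sum. Read depth per library is unknown, so this difference cannot be read as a difference in binding, and replicates are compared by rank. All 218 members overlapped a candidate region of replicate 1, and 214 one of replicate 2. The 4 without one, at zfp-2, H20J04.6, wrm-1 and unc-57, had 28.5 to 49.7 in replicate 1.

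Of the 218 members, 130 (59.6%, Wilson 95% interval 53.0 to 65.9%) were among the strongest regions of both replicates, counting in each as many regions as the reproducible set holds, against 60.9% of all reproducible peaks, which include the members. The shares were 66.5% of the 236 peaks in several windows and 48.9% of the 88 in none. In replicate 1 alone 200 members were among the strongest, in replicate 2 alone 141, so 70 were in the top of replicate 1 and not of replicate 2, 11 the reverse and 7 in neither. The reproducible set is itself chosen from these lists, so these shares describe it and do not test it.

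Agreement rested on the strong members. All 50 of the strongest were in the top of both replicates, then 42 of 50, 27 of 50 and 11 of the last 68. Spearman's rho between replicates was 0.720 over the 214 members found in both, 0.904 over the strongest 50 and −0.0636 over the 114 found in both that rank after 100. Peaks in the windows of 2 or more genes gave 0.833 over 230. Cutting the members by their joined value narrows the range of both replicates, which by itself lowers rho in the last set.

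The 3 members that changed rank most in each direction were these. C49A9.10, annotated as an oxidoreductase-like protein, had 101.5 in replicate 1, rank 47 among the members, and 8.20 in replicate 2, rank 198. The second peak of H41C03.3 and the peak at vps-4, whose product takes apart ESCRT filaments on membranes, also ranked far lower in replicate 2, with 65.0 in replicate 1 and 6.11 in replicate 2 for vps-4. In the other direction, hsp-3, which encodes a chaperone of the endoplasmic reticulum, had 27.6 in replicate 1, rank 204, and 24.6 in replicate 2, rank 76. The genes lin-59 (23.9 and 19.6), for a histone methyltransferase, and imb-3 (24.8 and 19.6), for an importin, likewise ranked higher in replicate 2. Of these 6, C49A9.10 ranks 63 by joined value and the others after 100. Changes of similar size were also seen at timm-17B.1 and T07F10.3, which rank 73 and 78.

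**Figure D5:**
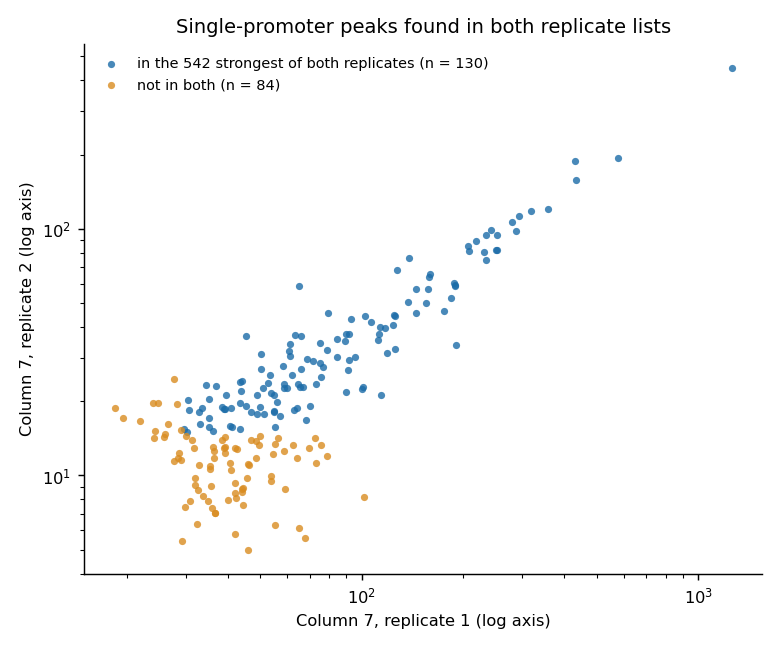
Each point is 1 of 214 members, with column 7 of replicate 1 on the x axis and of replicate 2 on the y axis, both log axes. Members in the strongest regions of both replicates (130) and the others found in both lists (84) are in different colours, and the points spread most widely at low values.

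Members and peaks in several windows overlapped widely in strength, but the strongest reproducible peaks were more often those in several windows. The joined median was 71.2 for members (quartiles 50.6 and 122) and 77.0 for the other set (52.5 and 167), a difference of −5.76. The difference was −25.2 among the 271 strongest reproducible peaks. It was −13.4 with a window to 2000 bp upstream and −5.92 with one from 500 bp upstream to 100 bp downstream. Replicate 1 had medians of 53.7 and 58.1, and replicate 2 of 19.1 and 23.6. Of the 25 strongest reproducible peaks 6 were members (24%), of the strongest 50 19 (38%), of the strongest 100 34 (34%). Peaks in several windows numbered 19, 29 and 57 in the same sets. The weakest members, at sti-1, W04C9.4 and col-63, had 39.2 to 39.5 in the joined list, near the lowest value of the reproducible set, 39.1. Most regions were 330 bp wide, 182 of 218 members, and 35 were narrower.

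The gene of the tagged protein had no member at its promoter. It lies at chrIV:253619-255429 on the minus strand, and the nearest member, at rps-24, is 130099 bp away.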

How the data were processed

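ChIP-seq was done on 2 biological replicates of 1 group, per the labels. The deposited lists are in narrowPeak format, and column 7 of each holds the signal that the authors' software assigned to a region. The 4 lists on ce11 were used: 30000 candidate regions per replicate, 30000 for the replicates joined, and the 542 kept after the irreproducible discovery rate step. Per notes deposited with the sample files, candidate lists were derived from the aligned reads and a further file that also enters the control-normalised signal, not analysed here. Neither caller nor aligner is named in the sources used here, and read depth is unknown.

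Summits were assigned to 5′ ends of Ensembl release 115 (WBcel235) with Python 3.11.15, pandas 2.3.3 and numpy 2.4.6, figures with matplotlib 3.10.9. Assignment, matching and word counting were tested on simulated peaks with known answers. Regions were matched between lists when they overlapped by 1 bp or more, taking the one whose summit was closest. The members, gene lists and first 4 words were chosen with earlier results of these data known. Named genes are those at the 30 strongest members, the 3 strongest of each list, the 3 at each end of the offsets and of the rank changes between replicates and the 3 weakest; other genes were named after their values were seen. Sequences were printed for strong members with a word, leaving out 1 chromosome and windows that touch an exon. The first block holds only some of the strongest members with CGTAAA, and F54D10.5 and gtsf-1 were picked for their shared runs. Intervals and limits from a count of 0 (3 counts) cover counting error only. Alternatives were other windows, peak sets, 5′ ends, gene classes, matching and single replicates.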

Additional observations from a re-analysis of the deposited data

How the results depend on the processing

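Of the main results, 43 values under the alternatives stayed within the interval of the reported one (or within 1.5 times a count) and 11 moved. Only the median offset and the difference from peaks in several windows could change sign, and both stayed negative. The share of peaks with exactly 1 gene was 47% with a window from 500 bp upstream to 100 bp downstream, 31.5% with one to 2000 bp upstream, and 33% when RNA genes and pseudogenes counted too. With only the 271 strongest reproducible peaks, which removes weak peaks by construction, 113 members remained, their median column 7 was 121, 89.4% were in the top of both replicates and 72.6% held a word. The share with a word was 53.2% with the window to 2000 bp and 47.2% in 61 bp around the summit. From the strongest regions of 1 replicate alone, the share of single-promoter peaks was 34.7 to 41.1%, the median offset −241 to −230 bp and the share with a word 48.9 to 55.6%; the lower shares came from replicate 2 alone. The cause of these shifts was not tested. Among single lists, ribosomal protein genes numbered 8 and splicing genes 3 with the window to 2000 bp, 9 and 5 among the 271 strongest peaks, and splicing genes 6 from replicate 2 alone. The CTCCG arrangement was in 8.77 to 17.7% of members over its alternatives, all chosen after seeing the data.

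No paired analysis was possible because there is 1 group. With 2 replicates, unknown depth and a signal of unstated scale, differences between peaks carry no replicate error, and values are compared within a list. Position ties a peak to a gene only by distance: the annotation, the spliced leaders and RNA genes left out of the rule all affect which gene is named.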
